A study of Rattus norvegicus with 24 samples.

Results

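The comparison described here is between untreated INS-1E cells at 12 h and at 6 h. INS-1E is a rat insulinoma line that makes and secretes insulin and serves as a model of the pancreatic beta cell. Both groups held the vehicle DMSO, no cytokines and no compound, with 3 arrays at each time, so that 6 of the 24 arrays in the series were compared directly. All 14217 genes with a named probe set were tested. The series also holds cells given 10 uM of the compound BRD0476, a cytokine cocktail (IL-1b at 10 ng/ml, IFN-g at 50 ng/ml and TNF-a at 25 ng/ml), or both, at 6 and 12 h, again with 3 arrays each. Cells with BRD0476 alone and cells with cytokines in DMSO were used to see which time changes recurred in other arrays. All cultures were of the same tumour-derived line, grown in serum, so they stand for a dividing cell line rather than for islets. The sources used here do not say whether the medium was changed at the start or whether the 3 arrays came from separate cultures. Unless another fit is named, p-values therefore measure the spread between arrays within groups, pooled over all 24 arrays.

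Several gene programs named below respond to nutrients and are known from many cell types. Sterol synthesis genes are driven by SREBP-2, a membrane-bound transcription factor that is held in the endoplasmic reticulum (ER) by Insig proteins when sterols are plentiful. ATF4 is a transcription factor whose protein is made when the initiation factor eIF2 is phosphorylated, as in amino acid shortage or ER stress, and it switches on genes for amino acid transport, amino acid synthesis and tRNA charging. ER chaperones fold the proteins of the secretory pathway, of which insulin is the main one in beta cells, and are driven by ATF6 and XBP1.

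Between 6 and 12 h, untreated cells lowered genes of sterol synthesis, of amino acid supply and of tRNA charging, and raised a smaller set that included nuclear RNA-processing genes and 3 ER chaperones or their partners. The RNA-processing genes were picked out after their values were seen. None of the 3 ER genes was called in a limma fit of the 6 untreated arrays alone. Changes are differences in mean log2 intensity, 12 h minus 6 h, given ± standard error with n = 3 arrays per time. Calls needed a limma p below 0.05 after Benjamini-Hochberg adjustment over all genes. Of 14217 genes, 238 were called, which is 1.67% of those tested. Of these, 66 were higher at 12 h (0.464% of genes) and 172 were lower (1.21%). Most changes were small: the median size among called genes was 0.42, 153 of them moved by less than 0.5, and at least 2-fold changes numbered 1 rise and 10 falls. In all 238 the 3 arrays of one time lay beyond the 3 of the other, a pattern seen in 2744 genes or 19.3% of all tested. The median change over all genes was 0.01.

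One array stood apart, replicate 2 at 6 h. Its 18 hybridization spike-in probe sets, which are added to every sample, averaged 8.90 on the log2 scale against 10.50 to 11.62 on the other 5 untreated arrays, and it correlated with its own group at r = 0.9953 and 0.9961, where the other pairs within a group reached 0.9979 to 0.9987. With the 12 h arrays it correlated at 0.9963 to 0.9964, higher than with either array of its own group. The share of rises among the calls moved with this array: without it, 135 genes were higher and 144 lower. For many named genes the value without it is given below. The number of arrays limits the precision of every estimate.

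**Figure D1:**
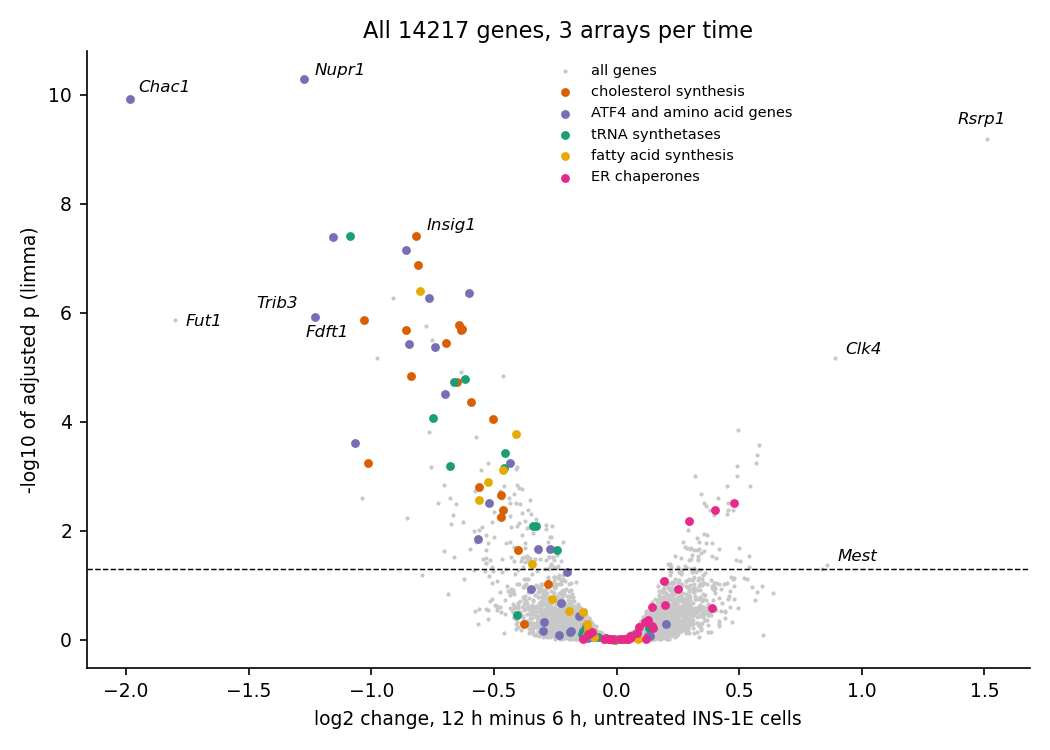
Each point is 1 of 14217 genes, with the log2 change from 6 to 12 h in untreated cells on the horizontal axis and -log10 of limma's adjusted p on the vertical axis, and colours mark 5 gene lists. Above the dashed line at an adjusted p of 0.05, the coloured lists sit on the left, with 18 of 20 sterol genes called lower, apart from 3 ER chaperone list members on the right.

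Of the 10 genes that fell at least 2-fold, several belong to the ATF4 and amino acid response. Chac1, which breaks down glutathione and is a sensitive marker of ATF4 activity, read 9.09, 9.08 and 9.09 on the 6 h arrays and 7.05, 7.04 and 7.21 on the 12 h arrays. The groups lay far apart, and the change was −1.99 ± 0.10, a 3.96-fold fall (adjusted p = 1.19e-10, limma). Nupr1, a stress-induced chromatin protein, read 10.46, 10.58 and 10.45 at 6 h and 9.20, 9.19 and 9.27 at 12 h, a change of −1.28 ± 0.06 (adjusted p = 5.14e-11, limma). Trib3, a pseudokinase that feeds back on ATF4, read 7.91, 7.87 and 7.75 at 6 h and 6.60, 6.50 and 6.73 at 12 h, a change of −1.23 ± 0.12. Atf4 itself read 12.11, 12.40 and 12.11 at 6 h and 11.36, 11.34 and 11.34 at 12 h. Its highest value was on the 6 h array that stood apart, and its change of −0.86 ± 0.07 was −0.76 without that array, still called.

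Of 32 measured members of the ATF4 and amino acid list, 16 fell, 0 rose and 16 were not called, with a median change of −0.31 against 0.01 over all genes. The 16 included transporters, enzymes and regulators. Among transporters, Slc1a4, which carries alanine, serine and cysteine, fell by 1.16 ± 0.09 on the log2 scale. The cystine carrier Slc7a11 fell by 1.07 ± 0.15 and the arginine and lysine carrier Slc7a1 by 0.85 ± 0.09. Among enzymes, Psat1 and Psph of serine synthesis changed by −0.77 and −0.70. The mitochondrial folate enzymes Mthfd2 and Shmt2 changed by −0.74 and −0.57, Aldh18a1 of proline synthesis by −0.60, Gpt2, which makes alanine, by −0.52, and asparagine synthetase, Asns, by −0.44. Cebpb, a transcription factor that pairs with ATF4, changed by −0.27, and Ppp1r15b, which directs a phosphatase to eIF2, by −0.32. Cebpb lost its call without 6 h replicate 2 (adjusted p = 0.088, limma). Gpt2 and Ppp1r15b were each read by 1 of 2 probe sets, and the other moved the opposite way without being called.

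The other 16 members did not pass the test. Phgdh, the first enzyme of serine synthesis, differed by 0.13 and Cth, which makes cysteine, by 0.05, and the amino acid carrier Slc38a2 differed by −0.23 (adjusted p = 0.845, 0.966 and 0.213, limma). Phgdh and Cth had 6 h means of 4.06 and 3.34, near or under the lower quartile of all values, 3.84. A fall could hardly have been seen in these 2 genes. Ddit3, the transcription factor CHOP that ATF4 induces under ER stress, had 7.52, 7.63 and 7.61 at 6 h and 7.79, 7.75 and 7.83 at 12 h. Its groups did not overlap, but the difference of 0.20 ± 0.11 was upward and was not called (adjusted p = 0.518, limma). Sesn2 and Ddit4, which restrain mTOR, differed by −0.19 and −0.14 and were not called. The carriers Slc7a5 and Slc3a2, the chains of the large neutral amino acid exchanger, differed by −0.35 and −0.16 with adjusted p = 0.118 and 0.364 (limma). Leaving out any 1 of the 6 arrays left 13 to 16 members lower and 0 higher.

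Aminoacyl-tRNA synthetases, which load amino acids onto tRNAs, fell in part. Of 21 measured genes, 10 fell, 0 rose and 11 were not called, with a median of −0.24. Cars1, the cysteine enzyme, read 8.74, 8.63 and 8.75 at 6 h and 7.58, 7.72 and 7.56 at 12 h, a change of −1.08 ± 0.08 (adjusted p = 3.89e-08, limma), with all 4 of its probe sets moving the same way. Mars1 for methionine changed by −0.75 ± 0.10, Iars1 for isoleucine by −0.68 ± 0.10, Aars1 for alanine by −0.66 ± 0.08 and Yars1 for tyrosine by −0.62 ± 0.07. Smaller falls were seen in Nars1, Tars1, Sars1, Lars1 and Gars1, between −0.46 and −0.24, and Gars1 was not called without 6 h replicate 2 (adjusted p = 0.0589, limma). Rars1, Hars1, Qars1, Kars1 and Wars1 differed by between −0.01 and 0.13 and were not called. Eprs1 differed by −0.41 with overlapping groups and was not called (adjusted p = 0.35, limma). Without 1 array at a time, 7 to 9 of the 21 were called lower.

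The promoters of these genes were read for the C/EBP-ATF element, the site that ATF4 and C/EBP partners are known to bind, because it could be compared between members that moved and members that did not. Windows of 300 bases, from 250 before to 50 after the annotated start, came from RefSeq (build GRCr8), and 11733 of the 14217 genes had one. The letters searched were TGATGNAAN on both strands. Of all genes tested with a window, 2.21% held a match, and of 27457 windows for all RefSeq symbols 3.80%. Among tRNA synthetases the match was in 7 of 9 windows of called genes and in 0 of 10 windows of genes not called. The 7 were Aars1, Cars1, Iars1, Mars1, Nars1, Tars1 and Yars1, and the called genes without one were Lars1 and Sars1, while Gars1 had no window here. In the ATF4 and amino acid list it was in 6 of 15 windows of called genes and in 1 of 14 of those not called. Over all genes called lower, 19 of 130 windows held it (14.6%), and over all genes called higher, 2 of 58 (3.45%). The 19 include the 7 tRNA synthetases and the 6 called ATF4 list members just counted, so they are not a separate result. The list members were chosen partly as known ATF4 targets, so their share is not independent of the factor. A match is a description of the letters and not a bound site.

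The stretches around the match are shown for the 4 members that fell most in each of these lists, turned so that the element reads the same way, 5′ to 3′, with the matched 9 bases in capitals.
Chac1: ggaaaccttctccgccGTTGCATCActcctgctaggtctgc
Nupr1: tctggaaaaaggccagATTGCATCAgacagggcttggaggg
Slc1a4: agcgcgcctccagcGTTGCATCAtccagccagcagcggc
Trib3: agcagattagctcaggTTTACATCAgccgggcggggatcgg
Cars1: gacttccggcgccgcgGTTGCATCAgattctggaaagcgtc
Mars1: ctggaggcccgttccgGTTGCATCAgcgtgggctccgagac
Iars1: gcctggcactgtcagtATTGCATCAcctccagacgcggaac
Aars1: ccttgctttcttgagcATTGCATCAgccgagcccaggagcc
All but Trib3 share the core letters TTGCATCA. In GRCr8 the Chac1 stretch lies at chr3:126795947-126795987 and the Aars1 stretch at chr19:55908353-55908393, both on plus strands. Aars1 holds another match in its window, not shown. The other stretches lie on minus strands, Nupr1 at chr1:190645933-190645973, Slc1a4 at chr14:98761774-98761812, Trib3 at chr3:161275531-161275571, Cars1 at chr1:208225329-208225369, Mars1 at chr7:65023747-65023787 and Iars1 at chr17:15193653-15193693. The Cars1 match begins at base 267 of its window, after the annotated start, and the other matches shown lie before it.

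Sterol synthesis fell almost as a whole. Of 20 measured members of that list, 18 fell, 0 rose and 2 were not called, with a median of −0.63 against 0.01 over all genes. Another 5 of the 25 listed genes had no named probe set in the annotation used here. Insig1, which retains SREBP-2 in the ER and is itself a target of it, read 11.19, 11.16 and 11.17 at 6 h and 10.33, 10.37 and 10.36 at 12 h. Its arrays scarcely varied within a time, and the change was −0.82 ± 0.06 (adjusted p = 3.89e-08, limma).

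The falls ran along the pathway. At its start, Acat2, which joins acetyl-CoA units, changed by −0.84 ± 0.10. Of the mevalonate steps, Mvk changed by −0.47, Pmvk by −0.56 and Mvd by −0.64. Idi1, which makes the allylic isoprene unit, read 11.38, 11.54 and 11.53 at 6 h and 10.67, 10.64 and 10.57 at 12 h, a change of −0.86 ± 0.09. Fdft1, squalene synthase and the first step committed to sterols, read 8.80, 8.91 and 8.80 at 6 h and 7.68, 7.93 and 7.82 at 12 h, a change of −1.03 ± 0.10 (adjusted p = 1.37e-06, limma). Sqle and Lss, which oxidise and close the squalene chain, changed by −0.64 and −0.50. Later steps followed with Cyp51 at −0.70, Msmo1 at −0.81, Tm7sf2 at −0.65, Nsdhl at −0.47, Sc5d at −0.46, Dhcr7 at −0.59 and Hsd17b7, a sterol ketone reductase, at −1.01 ± 0.15. Hsd17b7 read 8.63 on the 6 h array that stood apart and no more than 8.11 on the other 6 h arrays, and its change without that array was −0.82.

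The 2 members not called were Ebp, a sterol isomerase, at −0.28 ± 0.08 (adjusted p = 0.0937, limma), and Srebf2, the gene of SREBP-2, at −0.38 ± 0.20 (adjusted p = 0.522, limma). Both had all 12 h arrays below all 6 h arrays. For Srebf2 this was the probe set read, while its other probe set moved the opposite way without being called. Leaving out any 1 array left 17 or 18 members called lower. The array that stood apart cost 1 of these calls, Stard4, a sterol carrier, whose change went from −0.40 to −0.32 (adjusted p = 0.103, limma). In the promoter windows, the sterol regulatory element, searched as TCACNCCAC on both strands, was found in 0 of 16 windows of measured members against 1.12% of all genes tested. The CCAAT box, bound by NF-Y, was in 11 of 14 windows of called members and 2 of 2 of those not called, against 37.3% of all genes tested. It was also in 23 of 25 windows of the ER chaperone list, so it is not particular to the sterol genes or to those that fell. No match says only that these letters are absent from the window.

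**Figure D2:**
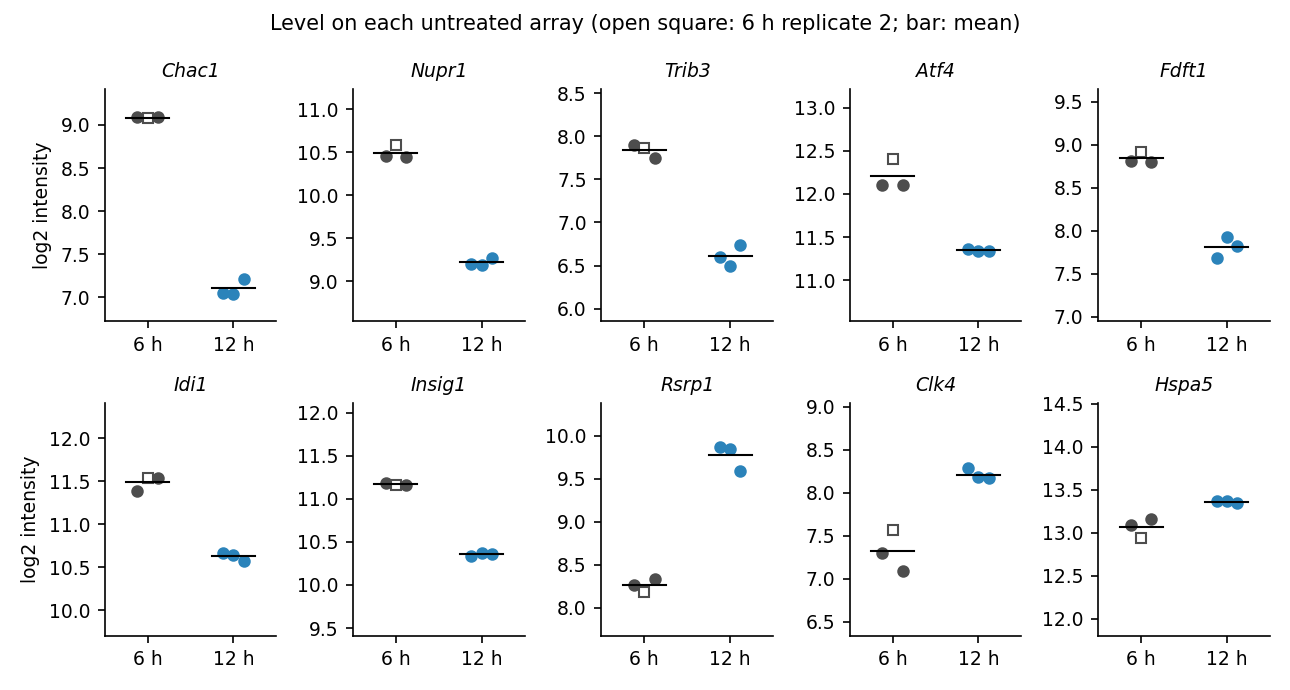
Each panel plots the log2 intensity of 1 gene on the 3 arrays at 6 h and the 3 at 12 h, with bars at the means and the same span on every vertical axis. Chac1, Nupr1, Trib3, Atf4, Fdft1, Idi1 and Insig1 lie lower at 12 h and Rsrp1, Clk4 and Hspa5 higher, with no overlap; the open square is 6 h replicate 2.

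Fatty acid genes moved in part. Of 19 measured, 6 fell, 0 rose and 13 were not called, with a median of −0.12. Acss2, which activates acetate, changed by −0.80 ± 0.07, Elovl6, which lengthens fatty acids, by −0.56 ± 0.10, Acaca, the first committed step, by −0.52 ± 0.09, Scd2 and Fads1, which add double bonds, by −0.46 and −0.41, and Fasn by −0.35 ± 0.09. Fasn read 10.44 on the 6 h array that stood apart and lost its call without it (−0.25, adjusted p = 0.16, limma). Acly and Me1, which supply acetyl-CoA and NADPH, differed by −0.14 and 0.02 and were not called. In the fit of the 6 untreated arrays alone, 3 of the 6 were called, Acss2, Acaca and Fads1. Cpt1a, which admits fatty acids to mitochondria for oxidation, rose by 0.33 ± 0.07, the only call among 18 oxidation genes. Its call was lost without 6 h replicate 3 or 12 h replicate 3. The sterol, fatty acid, ATF4 and tRNA synthetase lists together held 50 of the 172 genes called lower, which is 29.1%, and 8 of the 10 that fell at least 2-fold.

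The remaining genes with at least 2-fold falls belonged to none of these lists. Fut1, a fucosyltransferase, read 5.30, 5.65 and 5.45 at 6 h and 3.52, 3.63 and 3.85 at 12 h, a change of −1.80 ± 0.17 (adjusted p = 1.37e-06, limma). Its 12 h mean of 3.67 lay under the lower quartile of all values, 3.84, so the size of its fall is uncertain. Cd40, a receptor of the TNF family, read 5.96, 5.58 and 5.90 at 6 h and 4.24, 4.67 and 5.40 at 12 h. It was the most scattered of the large falls, at −1.04 ± 0.18 (adjusted p = 0.00246, limma), and was not called in the fit of the 6 untreated arrays alone (adjusted p = 0.193, limma). Just short of 2-fold, Poteml2 changed by −0.98 ± 0.11 and Tm6sf2, a membrane protein linked to lipid export in liver, by −0.91 ± 0.08.

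The largest rise was in Rsrp1, an arginine- and serine-rich nuclear protein. It read 8.26, 8.18 and 8.34 at 6 h and 9.87, 9.85 and 9.60 at 12 h. All 12 h arrays lay more than 1 unit above every 6 h array, and the change was 1.51 ± 0.09, a 2.85-fold rise (adjusted p = 6.53e-10, limma). Clk4, a kinase that phosphorylates SR splicing factors, read 7.30, 7.57 and 7.09 at 6 h and 8.29, 8.18 and 8.17 at 12 h, a change of 0.89 ± 0.10 (adjusted p = 6.91e-06, limma). Its relative Clk1 rose by 0.49 ± 0.08. The splicing list had 3 of 31 members higher (Clk4, Clk1 and Hnrnph1) and 1 lower, the cold-inducible RNA-binding protein gene Cirbp at −0.35, with a median of 0.03. Hnrnph1 rose by 0.26 and lost its call whichever of the 6 arrays was left out.

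After the values were seen, 17 of the 66 rises were picked out as genes of nuclear RNA processing, so this group has no count of its own to test. Beside the 4 genes above it held the splicing regulators Arglu1 at 0.57 ± 0.09, Luc7l3 at 0.49 ± 0.07 and Srek1 at 0.45 ± 0.08, the RNA-binding protein genes Khdc4 at 0.57 ± 0.08 and Rbm15b at 0.48 ± 0.09, the paraspeckle gene Pspc1 at 0.42 ± 0.09 and the nuclear RNA surveillance gene Zfc3h1 at 0.54 ± 0.14. Khdc4 read 9.14, 9.12 and 9.12 at 6 h and 9.72, 9.70 and 9.67 at 12 h, with little spread within either time. Several others, among them Zfc3h1, Pspc1, Nktr, Rnpc3 and Prpf4b, kept their call without the 6 h array that stood apart and lost it without 6 h replicate 1, without 6 h replicate 3 and without some of the 12 h arrays. Of 3 Rnpc3 probe sets, 2 moved upward.

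Among rises outside the RNA-processing and ER chaperone genes, the imprinted mesoderm gene Mest read 9.81, 9.65 and 9.69 at 6 h and 10.56, 10.60 and 10.56 at 12 h. Its change of 0.86 ± 0.21 was called (adjusted p = 0.0428, limma), although its call was lost whichever untreated array was left out (adjusted p = 0.105 without 6 h replicate 2, limma). In the fit of the 6 untreated arrays alone it was called (adjusted p = 0.00303, limma). Selenoh, a nuclear selenoprotein, rose by 0.58 ± 0.08, Bnip2 by 0.54 ± 0.09, the growth factor gene Igf1 by 0.54 ± 0.13 and Pcp4l1 by 0.50 ± 0.12. Igf1 and Pcp4l1 kept their call without 6 h replicate 2 and lost it without 6 h replicate 1 or 3 and without some of the 12 h arrays. Of 3 Igf1 probe sets, 2 moved upward. Npy, a neuropeptide of the secretory granule, rose from 12.21, 12.17 and 12.15 to 12.51, 12.51 and 12.46, a change of 0.32 ± 0.05.

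ER chaperones moved little, and upward where they moved. Of 31 measured members, 3 rose, 0 fell and 28 were not called, with a median of 0.06. Hspa5, the main ER chaperone BiP, read 13.09, 12.94 and 13.16 at 6 h and 13.36, 13.37 and 13.34 at 12 h, a change of 0.30 ± 0.06 (adjusted p = 0.00665, limma). Creld2, a disulphide isomerase, rose by 0.48 ± 0.09 and Sdf2l1, a BiP partner, by 0.40 ± 0.07. Dnajb9, a BiP co-chaperone, was not called at 0.39 (adjusted p = 0.266, limma) but was called higher without 6 h replicate 2, at 0.57 (adjusted p = 0.0366, limma). Hsp90b1, Pdia4, Calr and Canx differed by 0.05, 0.06, 0.12 and 0.03 and were not called. In the fit of the 6 untreated arrays alone none of the 3 was called (adjusted p = 0.168 for Hspa5, 0.114 for Creld2 and 0.0548 for Sdf2l1, limma; of all genes, 14 were called higher in that fit), whereas with array weights 9 members were called higher. The ER stress element, searched as CCAAT and CCACG with 9 bases between them, on both strands, was in 8 of 25 windows of measured members and in 2 of the 3 called, against 0.145% of all genes tested. These 2 stretches carry it, read on the gene's strand with both blocks of letters in capitals, and in Creld2 the element is on the opposite strand.
Hspa5: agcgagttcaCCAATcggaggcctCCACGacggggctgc
Creld2: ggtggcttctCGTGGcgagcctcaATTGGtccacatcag
They lie in GRCr8 at chr3:38452963-38453001 and chr7:121789229-121789267, both on plus strands. The other 6 members with a match, among them Hsp90b1, Calr and Canx, were not called. Members of this list were chosen partly as known ATF6 and XBP1 targets. Their share of windows with the element is therefore not independent of those factors.

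Among proliferation genes, only G1/S members were called, and a difference between the G1/S and mitosis lists was not tested. Of 36 G1/S and replication genes, 5 fell, 0 rose and 31 were not called, with a median of −0.16. Mcm7, a subunit of the replicative helicase, changed by −0.29 ± 0.06, E2f1 by −0.28 ± 0.06, thymidine kinase Tk1 by −0.27 ± 0.06, Uhrf1, which copies DNA methylation, by −0.36 ± 0.08 and the ribonucleotide reductase subunit Rrm1 by −0.26 ± 0.06. Uhrf1 and Rrm1 were not called without 6 h replicate 2 (adjusted p = 0.0867 and 0.114, limma). Without 1 array, 1 to 4 members were called lower, with the lowest count without 12 h replicate 2. With array weights 18 were, and in the limma fit of the 6 untreated arrays alone 0 were, of 83 genes called lower in all. Of 35 mitosis genes none was called by limma, against 1.67% of all genes, a share at which 35 genes may well hold none. Their median was −0.05, and Ccnb1, which drives entry into mitosis, differed by 0.02 ± 0.07. The largest mitosis differences were Mki67 at −0.22 and Mad2l1 at −0.20 (adjusted p = 0.236 and 0.0573, limma). The highest upward difference in that list was 0.12. In bulk RNA, fewer cells in a phase and less RNA per cell cannot be told apart.

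No change in beta-cell identity genes was called. Ins1 read 14.58, 14.46 and 14.55 at 6 h and 14.59, 14.59 and 14.55 at 12 h, with a difference of 0.05 and a 95% interval from −0.06 to 0.16. Ins2 differed by 0.01, with an interval from −0.11 to 0.14. Of 18 measured beta-cell transcription factors none was called, with a median of 0.06. Over all genes 1.67% were called, a share at which 18 genes may well hold none. Without 6 h replicate 2, 1 was called higher, Myt1, at 0.37 against 0.32 with all arrays (adjusted p = 0.0441 and 0.0708, limma), and with array weights 4 were called higher and 1 lower. Pdx1 and Mafa, activators of the insulin gene, differed by 0.23 and 0.22 with groups that did not overlap (adjusted p = 0.229 and 0.123, limma), and Nkx6-1 by −0.02. The glucose transporter gene Slc2a2 differed by −0.08. Txnip, a glucose-responsive gene, differed by 0.22 ± 0.06 and was not called (adjusted p = 0.0959, limma). Of 25 glucose-sensing and secretion-tuning genes 1 was called, the glucagon receptor Gcgr at −0.42 ± 0.07, with a list median of −0.03. Of 24 glycolysis genes 1 was called, the aldolase gene Aldoc at −0.58 ± 0.10, with a list median of −0.13. Gcgr was not called in the fit of the 6 untreated arrays alone (adjusted p = 0.0888, limma).

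Markers of other cell types were read as lists and as single genes. Members' mean log2 level per array was 4.47 to 4.70 for 10 markers of other islet endocrine cells, 3.96 to 4.11 for 16 leukocyte markers, 4.51 to 4.71 for 10 endothelial markers, 5.06 to 5.26 for 17 acinar and ductal markers and 5.30 to 5.41 for 15 fibroblast markers. No member of these 5 lists was called by limma, where 238 of all 14217 genes (1.67%) were. At that share, lists of this size would hold few calls or none. Without 6 h replicate 2, 1 endothelial marker was called higher, the receptor gene Kdr (0.57 with all arrays, 0.75 without that one, adjusted p = 0.0352, limma). Single markers could be read high: the endothelial adhesion gene Esam lay between 8.49 and 8.80 on the 6 arrays and Kdr between 5.52 and 6.45. The part of other cells in the results was not tested. The beta-cell genes Ins1, Ins2 and Slc2a2 were read far above the array medians of 5.49 to 5.57 on all 6 arrays.

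**Figure D3:**
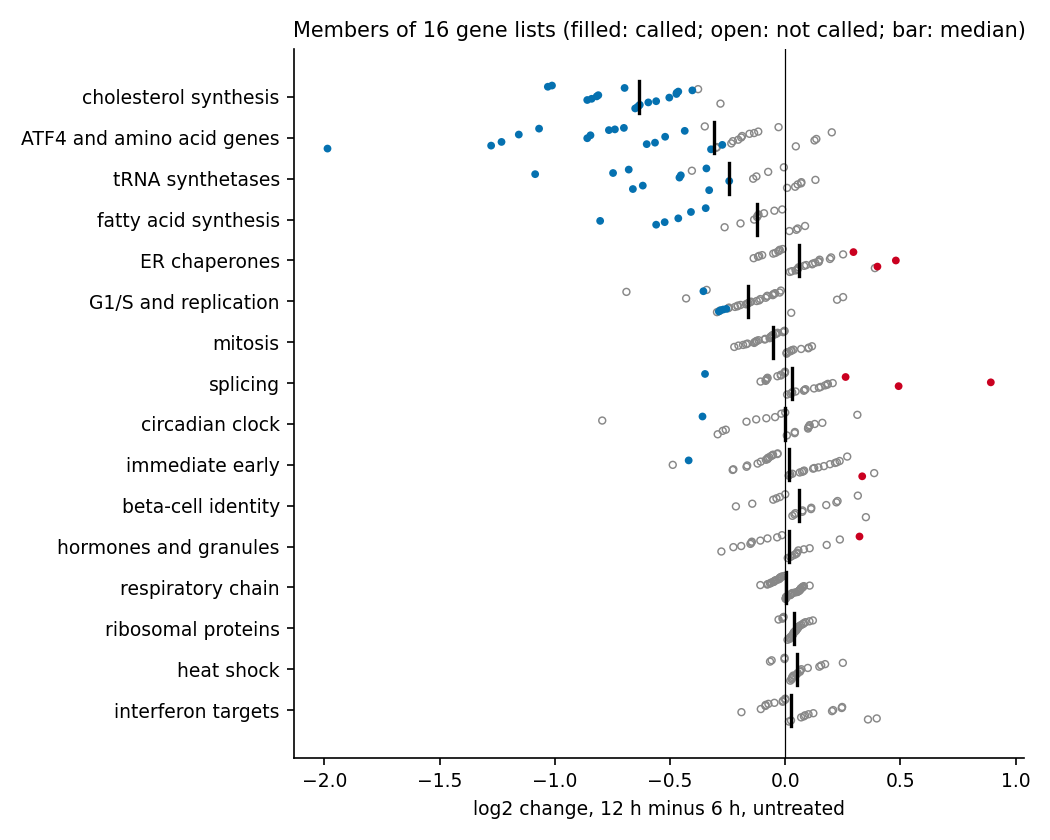
Every point is 1 measured gene of the list named on the left, placed by its log2 change from 6 to 12 h in untreated cells, with filled points called lower (blue) or higher (red) and a bar at the list's median. The sterol list lies wholly to the left of 0, and the ATF4 and tRNA synthetase lists partly so. The respiratory chain, ribosomal protein and heat shock lists hold no filled point, where 1.67% of all genes were called.

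The circadian clock and serum response lists bear on timing. Of 21 clock genes, 1 was called, Timeless at −0.36 ± 0.09, which also works in replication forks, and its call was lost without any 1 of the 6 arrays. The core clock genes Per2, Bmal1 and Nr1d1 differed by −0.29, 0.31 and −0.04 and were not called. Of 37 immediate early genes, Crem rose by 0.33 ± 0.08 and Dusp6, which switches off ERK, fell by 0.42 ± 0.10 on the log2 scale. Both lost their call without 6 h replicate 2 (adjusted p = 0.106 and 0.145, limma) and without several other single arrays. Fos and Egr1 differed by 0.13 and 0.27 and were not called. Lists of 44 respiratory chain genes, 27 ribosomal proteins, 19 heat shock genes and 23 interferon targets had no member called by limma, with medians of 0.00, 0.04, 0.05 and 0.03. Over all genes 1.67% were called, so lists of this size can hold few calls or none without being unlike other genes.

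The same interval was measured in cells with 10 uM BRD0476 and no cytokines, on 6 other arrays. The means of these arrays did not enter the untreated changes, but their spread did enter the pooled error behind both sets of calls. There 394 genes were called (2.77%), 162 higher (1.14%) and 232 lower (1.63%). Of the 238 genes called in untreated cells, 33 of 66 rises and 104 of 172 falls were called in the same direction, 0 in the opposite one, and 230 had the same sign. Across these 238 genes, which are not independent replicates, the changes correlated with Pearson r = 0.856 and Spearman rho = 0.817. Since the genes were chosen for their change in untreated cells, smaller changes in the other arrays are not read as a difference. Nupr1 changed by −1.11 with BRD0476 alone, Trib3 by −0.84, Psat1 by −0.75, Insig1 by −0.47, Fdft1 by −0.54, Rsrp1 by 1.34, Clk4 by 0.69 and Mest by 1.12. All 17 RNA-processing genes picked out above had the same sign there, as did most of the 238, and 14 were called. As they were picked after values were seen, this is not a separate test of recurrence. Sterol genes had 9 lower and 0 higher of 20 (median −0.26), the ATF4 list 13 lower of 32 (median −0.28) and tRNA synthetases 8 lower of 21 (median −0.22).

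The difference between these time changes was itself tested, and 10 genes were called (0.0703% of those tested), of which 5 were among the 238. Chac1 changed by −0.97 with BRD0476 alone and by −1.99 without it, a difference of 1.01 ± 0.14 (adjusted p = 0.00348, limma). Slc1a4 differed by 0.75 ± 0.12, Cars1 by 0.63 ± 0.11, Atf4 by 0.55 ± 0.09 and Fdps, which makes the farnesyl unit, by 0.66 ± 0.09. Fdps fell by 0.63 in untreated cells and differed by 0.03 with BRD0476 alone. For genes not called, this test does not show that the compound left their time change alike.

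**Figure D4:**
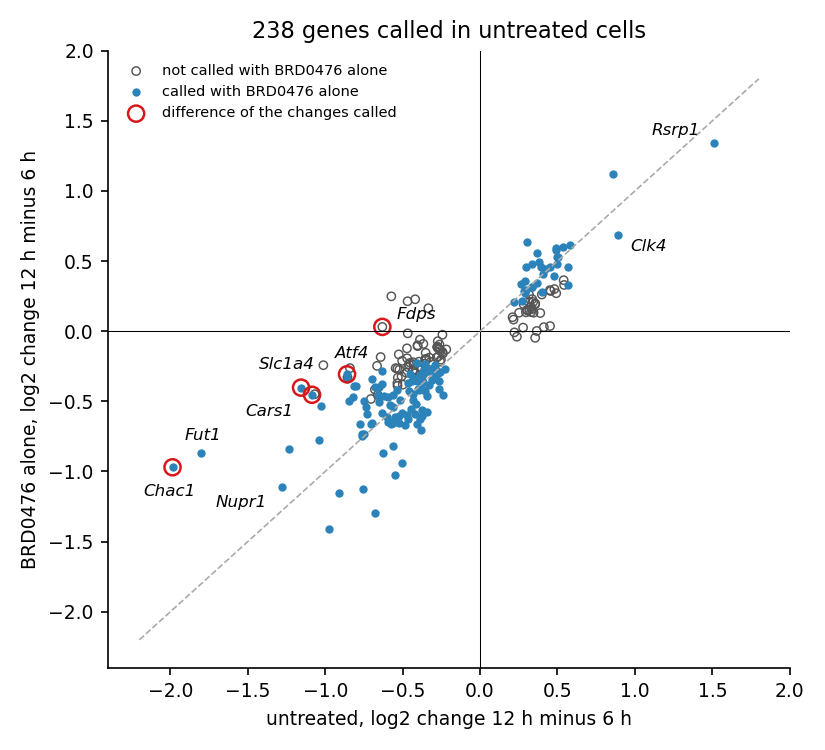
Each point is 1 of the 238 genes called in untreated cells, with its log2 change from 6 to 12 h there on the horizontal axis and with BRD0476 alone, from 6 other arrays, on the vertical axis; the dashed line marks equal changes. Most points share a sign (230 of 238), and red rings mark the 5 genes whose difference was called, Chac1, Slc1a4, Cars1, Atf4 and Fdps.

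With cytokines in DMSO the same 6 h brought far more change, with 5903 genes called (41.5%), 2619 higher (18.4%) and 3284 lower (23.1%). Of the 238 genes called in untreated cells, 30 rises and 88 falls were called the same way, 58 were called the opposite way and 153 had the same sign. The time change differed between cytokine-treated and untreated cells in 4089 genes (28.8%), among them 164 of the 238. The sterol list was mixed under cytokines: of 20 members, 9 were called higher and 3 lower. Its median was 0.16 with cytokines against −0.63 without, and the difference was called in 18 of 20. The 3 called lower were Pmvk at −0.706, Fdft1 at −0.374 and Sc5d at −0.325. Insig1 rose by 0.18 with cytokines, Acat2 by 0.60 and Sqle by 0.55, where each had fallen without them. These rises began from lower levels: Acat2 averaged 8.78 at 6 h with cytokines against 10.25 without, and 9.38 against 9.41 at 12 h. Insig1 averaged 10.25 against 11.17 at 6 h and 10.43 against 10.36 at 12 h, so that the levels lay closer together at 12 h than at 6 h. The ATF4 list fell in both, with a median of −1.21 under cytokines and 28 of 32 lower, and the difference was called in 23. Trib3 changed by −3.10 there and Nupr1 by −2.74, from 6 h means of 11.20 and 12.01 against 7.84 and 10.50 without cytokines. Rsrp1 rose by 1.74 under cytokines against 1.51 without (adjusted p of the difference 0.18, limma), whereas Clk4 fell by 0.50 there (adjusted p of the difference 1.62e-07, limma).

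**Figure D5:**
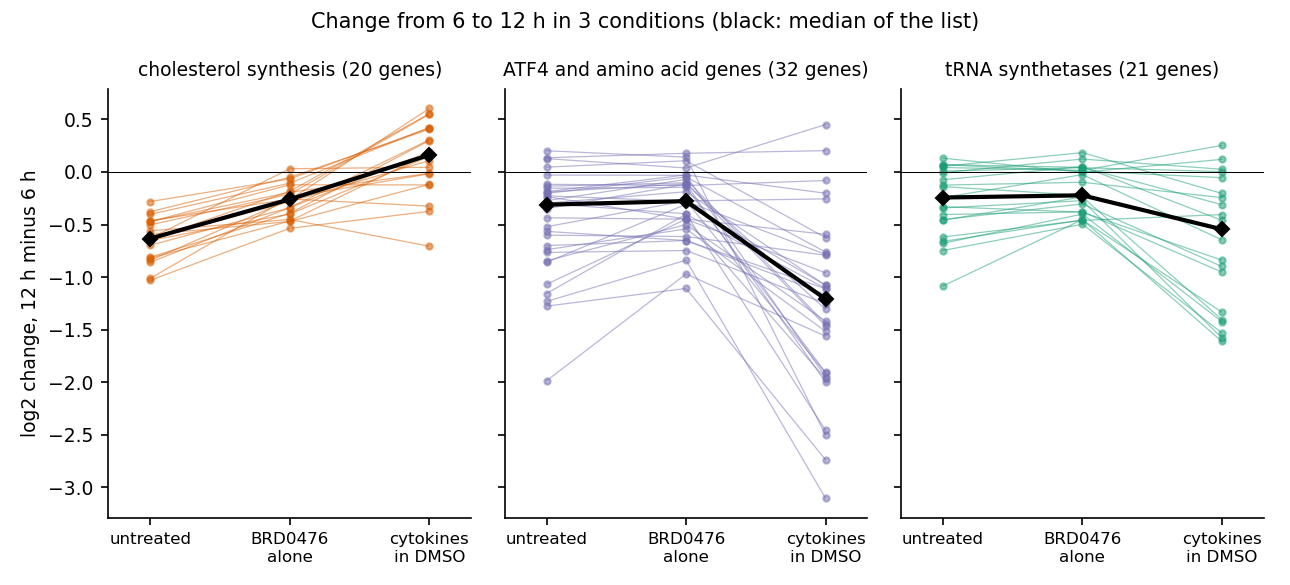
Thin lines join the log2 change from 6 to 12 h of each gene in untreated cells, with BRD0476 alone and with cytokines in DMSO, for 3 gene lists, and black diamonds mark the list's median. Sterol genes go from a median of −0.63 in untreated cells to 0.16 under cytokines, and the ATF4 list from −0.31 to −1.21.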

How the data were processed

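Total RNA of INS-1E cells was labelled with biotin and hybridised to single-colour Affymetrix arrays. The deposited intensity values were made by the authors with RMA, per the submitters' processing notes, a method that subtracts background, makes arrays comparable and condenses probes; its version and the chip definition are not given in the sources used here. The values are linear and were taken to log2, with array medians from 5.49 to 5.57. Of 31099 probe sets, 20832 carried 1 gene symbol, 436 several and 9831 none; 14217 genes remained, and where a gene had several named probe sets, the one brightest on average was read.

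limma 3.58.1 in R 4.3.3 fitted a mean for each of 8 groups over 24 arrays (16 residual and 3.97 prior degrees of freedom). P-values were adjusted over all genes and called under 0.05. An exact test of 3 arrays against 3 cannot reach that threshold. Steps were tested on simulated data. Figures used matplotlib 3.10.9 in Python 3.11.15. Promoter windows were matched by symbol to RefSeq (GRCr8), with the first listed window of a gene.

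Groups came from the labels. The comparison, the 40 gene lists and the naming rule were chosen with earlier results of these data known. Named genes were the 12 largest rises and 12 largest falls among called genes whose times did not overlap, up to 4 called members of each list (or 2 with the largest change), a fixed panel and the 5 largest differences in each direction; members beyond these, the RNA-processing genes and genes named to complete a list's count were named after their values were seen. Same-numbered arrays deviated together with r = −0.10, 0.08 and −0.05, so the numbers were not taken as pairs.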

Additional observations from a re-analysis of the deposited data

Results flagged for a closer look

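The change from 6 to 12 h differed between untreated cells and cells with BRD0476 alone, by limma's test of the difference, in 10 genes. Values are the log2 change with BRD0476 alone minus that in untreated cells. The differences were Chac1 at 1.01, LOC102554253 at 0.93, Dbp at 0.91, Spp2 at 0.82 and Slc1a4 at 0.75. Further ones were Tle3 at −0.63, Tp53inp2 at 0.43, Atf4 at 0.55, Cars1 at 0.63 and Fdps at 0.66. Of these, Dbp, a clock-output gene, rose by 0.74 with BRD0476 alone and was not called in untreated cells (−0.17, groups overlapping). Tle3 was the one gene whose difference was negative. Levels at 6 h already differed for some of these genes. Spp2 averaged 6.775 with BRD0476 alone against 8.026 in untreated cells at 6 h, and 7.502 against 7.934 at 12 h. Tle3 averaged 8.293 against 7.752 at 6 h and 7.851 against 7.941 at 12 h. Chac1 went the other way, from 9.728 against 9.087 at 6 h to 8.758 against 7.101 at 12 h, further apart.

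Under cytokines in DMSO, the time change differed from that of untreated cells, by the same test, in 4089 genes. The 10 with the largest differences among those called were Ccl2 at 3.03, LOC100909928 at 2.95, Egr1 at 2.64, Socs1 at 2.37 and Ppp1r10 at 2.24 on the upper side and Nr1d1 at −3.78, Barhl1 at −3.45, RT1-Bb at −3.37, Cox6a2 at −2.96 and Uap1l1 at −2.92 on the lower side. Among the genes with the largest rises in untreated cells, the differences were Clk4 at −1.39, Mest at −1.53, Selenoh at −0.54, Khdc4 at 0.83, Arglu1 at 1.09, Zfc3h1 at 1.46, Igf1 at 0.96, Pcp4l1 at 0.92, Nktr at −0.55 and Luc7l3 at 0.61. Among those with the largest falls they were Chac1 at 0.42, Nupr1 at −1.46, Trib3 at −1.87, Cars1 at −0.53, Slc7a11 at −0.90, Cd40 at 1.25, Fdft1 at 0.66, Hsd17b7 at 0.99, Poteml2 at 1.63 and Tm6sf2 at 0.80. These tests share the untreated arrays, so the values for BRD0476 and for cytokines are not independent of each other.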

How the results depend on the processing

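The untreated counts, 66 higher and 172 lower, moved with the setting. With array weights, which change the group means as well as the spread and gave 6 h replicate 2 a weight of 0.318, they were 824 and 721. With only the 6 untreated arrays they were 14 and 83, and with that array also left out, a setting chosen after seeing the data, 114 and 135. Leaving out 1 array at a time gave 29 to 135 higher and 103 to 144 lower. At least 2-fold changes, 1 higher and 10 lower, became 2 higher with array weights, 3 higher and 6 lower with the 5 remaining untreated arrays, 3 higher and 15 lower over single probe sets (also chosen after seeing the data), and 1 to 3 higher and 6 to 11 lower without 1 array. The 10 differences with BRD0476 alone became 66 with array weights, 5 with only the arrays compared and 4 to 11 without 1 array. The cause was not tested.

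The replicate block gave 56 higher and 158 lower, within 1.5 times, and took the call from 8 of the named genes. The cytokine difference stayed between 3274 and 4594 genes in every setting run. Under every alternative fitted per gene, 9 rises and 55 falls kept their call, among them Rsrp1, Clk4, Selenoh, Khdc4, Arglu1, Bnip2, Chac1, Nupr1, Trib3, Atf4, Cars1, Fdft1, Idi1 and Insig1, and no named gene was called in the opposite direction. The values carry no detection calls, so changes at levels near 3.84 are uncertain in size.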

Other observations

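In a fit over 31042 probe sets, 10216 had no gene symbol or several, and 18 of these were higher and 33 lower at 12 h, 1 of them at least 2-fold lower.

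A few further genes called lower at 12 h, chosen after their values were seen, handle amino acids or lipids outside the lists. The glutamine carriers Slc1a5 and Slc38a1 changed by −0.40 ± 0.07 and −0.32 ± 0.07, the latter losing its call without any 1 of the 6 untreated arrays. Of 3 Slc38a1 probe sets, 2 moved downward. Gpd1, which links glycolysis to glycerolipids, changed by −0.55 ± 0.09, the nicotinamide methyltransferase gene Nnmt by −0.57 ± 0.08, and the insulin-responsive glucose transporter gene Slc2a4 by −0.48 ± 0.09. The peptide hormone gene Prok2 read 7.96, 7.90 and 8.26 at 6 h and 7.33, 7.50 and 7.27 at 12 h, a change of −0.68 ± 0.13. Among rises, the cytokine gene Tslp changed by 0.38 ± 0.07 and Eif2ak3, the gene of the eIF2 kinase PERK, by 0.34 ± 0.08. Single arrays decided some of these calls: Prok2 lost its call without 6 h replicate 3 or 12 h replicate 3, Slc2a4 without 6 h replicate 1 or 12 h replicate 2, and Eif2ak3 without any of 4 of the 6 arrays. With BRD0476 alone, Prok2 changed by −1.30, Gpd1 by −0.61, Slc2a4 by −0.67 and Tslp by 0.50 over the same interval.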
